A study of Anguilla japonica with 6 samples.

Results

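Mos, the B-type cyclins, cyclin E and Cdc20 form the core of the machinery that stops and restarts division in the vertebrate oocyte. Mos is a serine/threonine kinase made in oocytes that switches on the MAP kinase cascade and holds the mature egg in the second meiotic metaphase. B-type cyclins bind cyclin-dependent kinase 1 (CDK1) to form maturation-promoting factor, cyclin E binds CDK2 and drives DNA replication, and CDC20 activates the anaphase-promoting complex, the ubiquitin ligase that marks cyclin B for destruction. The 5 genes mos, ccnb1, ccnb2, ccne1 and cdc20 were followed in the gonads of the Japanese eel (Anguilla japonica). They were represented by the transcripts whose best SwissProt protein hit came from a vertebrate and carried one of these 5 gene symbols, which gave 21 of the 35011 transcripts in the table and 5 of 9262 vertebrate symbols. The transcripts were 1 for mos, 5 for ccnb1, 7 for ccnb2, 4 for ccne1 and 4 for cdc20.

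The fish were reared in aquaculture and had reached the silver stage, when the gonads of both sexes have differentiated but are still immature. No hormone was given to either group, and the labels give no strain or age. Ovaries of 3 females and testes of 3 males each gave 1 Illumina library, and full-length transcripts read by PacBio served as the reference. Each library mixes all cell types of a gonad, and a lower level from fewer cells of a type cannot be told apart from one with less RNA per cell.

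The libraries held 11913969 to 18508307 estimated counts. Their summed FPKM (fragments per kilobase of transcript, scaled to the size of the library) was 721650 to 821037 in the ovaries and 770032, 1218425 and 1312673 in testes 1, 2 and 3. Rank correlations of gene levels were 0.891 to 0.913 between ovaries and 0.499 to 0.602 between an ovary and a testis. Testis 2 and testis 3 correlated at 0.928, whereas testis 1 stood apart from both at 0.789. Testis 1 also carried genes of dividing cells at a summed 3741 FPKM against 791 and 1119 in testes 2 and 3. Of 7 listed red blood cell markers only 2 were found, and they disagreed. Cahz stood at 3723, 81.0 and 132 FPKM in testes 1, 2 and 3, and alas2 at 3.17, 39.6 and 12.2 FPKM. The labelled tissues were checked with marker genes. All 10 oocyte markers were listed above 0 in all 6 libraries. Their summed level was 128213 to 146658 FPKM in the ovaries and 625, 22003 and 4479 FPKM in testes 1, 2 and 3. Most of the ovary sum was zp3, at 69927 to 94716 FPKM, and zp4, at 43359 to 51765 FPKM. By the test given below, 8 of the 10 were called higher in ovary, beside 21.1% of all genes tested. Zp4 and nobox were not called (edgeR adjusted p = 0.0997 and 0.0682), although each ovary stood above each testis for all 10. The 8 meiotic male germ cell markers summed to 28.8 to 32.4 FPKM in the ovaries and 515 to 1167 FPKM in the testes. Of these 8, 7 were called higher in testis by the test given below, and meiob overlapped between the tissues. Of 8 listed markers of testis somatic cells, 5 were in the table, and 5 were called higher in testis. Among all genes tested, 24.8% were called so.

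All 5 genes were higher in ovary, and each ovary stood above each testis. They were chosen with earlier results of these data known, so this count is no test beside the shares over all genes. Of the 12367 genes tested by edgeR's quasi-likelihood test, 21.1% were called higher in ovary at an adjusted p under 0.05, and 24.1% had all ovaries above all testes. These genes include single transcripts without a symbol. Among the 9182 tested genes with a symbol, 22.5% were called higher in ovary and 22.8% higher in testis. The fold changes ran from 12.8-fold for ccnb2 to 183-fold for mos, beside a median over all genes tested of 0.11 on the log2 scale (testis minus ovary). Levels below are FPKM summed over the transcripts of a gene, fold changes come from the counts, and adjusted p-values are taken over all 12367 genes.

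Mos is the kinase that gives the egg its arrest. Its level was 192, 167 and 281 FPKM in ovaries 1, 2 and 3 and 0.33, 2.20 and 1.58 FPKM in testes 1, 2 and 3. The lowest ovary lay far above the highest testis, and testis 1 was the lowest of all. The means were 213 ± 60.3 FPKM in ovary and 1.37 ± 0.953 FPKM in testis (SD, n = 3 each), a log2 fold change of -7.52 (SE 0.84, edgeR adjusted p = 0.00134). The estimated counts behind the testis values were 9, 58 and 37, against 21666 summed over the 3 ovaries. Without testis 2 the log2 fold change was -8.11.

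Ccnb1 encodes cyclin B1, a regulatory subunit of maturation-promoting factor. It was the most abundant of the 5 genes in ovary, at 2291, 2210 and 4346 FPKM, and ranked 31, 27 and 9 among the genes with a symbol in ovaries 1, 2 and 3. The testes held 100, 116 and 39.3 FPKM. Ovary 3 was the highest library and testis 3 the lowest, and the tissues did not overlap. The means were 2949 ± 1211 FPKM in ovary and 85.2 ± 40.5 FPKM in testis (SD, n = 3 each), with a log2 fold change of -5.41 (SE 0.63, edgeR adjusted p = 0.00150).

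Ccnb2 encodes cyclin B2, the second B-type partner of CDK1. Its level was 625, 617 and 1185 FPKM in the ovaries and 144, 71.2 and 37.7 FPKM in the testes. As with ccnb1, ovary 3 was the highest library, while the highest testis was testis 1. The means were 809 ± 326 FPKM and 84.4 ± 54.6 FPKM (SD, n = 3 each), a log2 fold change of -3.67 (SE 0.52, edgeR adjusted p = 0.00248). This was the smallest difference of the 5 genes.

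Ccne1 encodes cyclin E1, which with CDK2 drives entry into DNA synthesis and is stored in the egg for the first embryonic divisions of frogs and fish. Its level was 103, 180 and 159 FPKM in the ovaries and 15.6, 8.48 and 6.12 FPKM in the testes. Testis 1 was again the highest testis, at a level well under the lowest ovary. The log2 fold change was -4.15 (SE 0.40, edgeR adjusted p = 0.00102), from means of 147 ± 39.7 FPKM and 10.1 ± 4.93 FPKM (SD, n = 3 each).

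Cdc20 encodes the activator through which the anaphase-promoting complex recognises cyclin B and securin. The cdc20 level was 1043, 1477 and 1417 FPKM in the ovaries and 77.4, 46.1 and 23.9 FPKM in the testes. In FPKM it varied least of the 5 genes among ovaries, with a coefficient of variation of 17.9% against 26.9% to 41.1% for the other 4. As a percentage of library counts, cdc20 was 0.244, 0.311 and 0.307 in ovaries 1, 2 and 3. Ccne1 was 0.0238, 0.0315 and 0.0297, and the spread of these percentages was not compared. The cdc20 means were 1313 ± 235 FPKM and 49.1 ± 26.9 FPKM (SD, n = 3 each), a log2 fold change of -5.10 (SE 0.53, edgeR adjusted p = 0.00119).

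**Figure D1:**
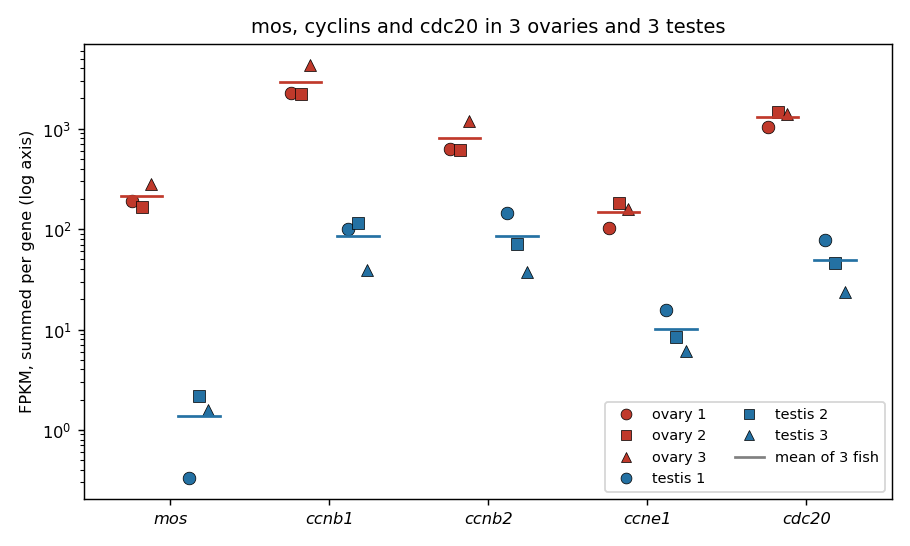
FPKM of mos, ccnb1, ccnb2, ccne1 and cdc20 (log axis) in each of 3 ovaries (red) and 3 testes (blue), with the mean of 3 fish as a line. In each gene all ovaries lie above all testes, and the gap is widest for mos, whose testis values are 0.33 to 2.20 FPKM.

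Within the ovary the genes fell into the order ccnb1, cdc20, ccnb2, mos and ccne1 by mean FPKM. Within each ovary ccnb1 was above cdc20, cdc20 above ccnb2, and ccnb2 above mos, with ratios of ccnb2 to cdc20 of 0.600, 0.418 and 0.836 in ovaries 1, 2 and 3. The ranges of cdc20 and ccnb2 over the ovaries still overlapped. Mos and ccne1 did not keep their order, with mos over ccne1 at 1.86, 0.924 and 1.77. In testis the order was ccnb1, ccnb2, cdc20, ccne1 and mos. There ccnb1 and ccnb2 changed order between libraries, since ccnb2 was the higher in testis 1. Both were above cdc20 in each testis, ccne1 lay below all 3 of them and mos below ccne1.

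The balance between the B-type cyclins was compared as a share, which does not depend on the scaling of a library. Ccnb1 made up 78.6%, 78.2% and 78.6% of the summed ccnb1 and ccnb2 FPKM in the ovaries, a spread of 0.227 percentage points (SD, n = 3). In testes 1, 2 and 3 the share was 41.0%, 62.0% and 51.0%. The ovary shares of FPKM lay close together, although both genes were highest in ovary 3, and all were above the testis shares. FPKM sums rest on how counts were divided among transcripts of unlike length, which was not tested. The estimated counts in ovaries 1, 2 and 3 were 50574, 43620 and 98545 for ccnb1 and 15793, 16038 and 31563 for ccnb2. From ovary 1 to ovary 2 the ccnb1 counts fell and the ccnb2 counts rose. The testis mean was 51.3% ± 10.5 (SD, n = 3), lower by 27.1 percentage points, with p = 0.1 in the exact two-sided permutation test, the smallest p that 3 against 3 libraries allow.

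The testes did not rank alike for all 5 genes. Mos was highest in testis 2, then testis 3, then testis 1, the same order as the summed oocyte markers. Most of that sum was zp3, at 572, 13099 and 4190 FPKM in testes 1, 2 and 3, and zp4, at 12.1, 8649 and 189 FPKM. Ccnb2, ccne1 and cdc20 were highest in testis 1 and lowest in testis 3, and the genes of dividing cells were also highest in testis 1. Set against the ovary mean, the mos level was 0.155%, 1.03% and 0.741% in testes 1, 2 and 3. The same measure was 3.40%, 3.93% and 1.33% for ccnb1 and 17.9%, 8.80% and 4.66% for ccnb2. In testis 1, ccnb2, ccne1 and cdc20 each exceeded all 10 oocyte markers on this measure, whose median there was 1.40% and whose highest was 5.77%. In testis 3 the oocyte markers ran from 0.183% to 15.5% of the ovary mean, and all 5 genes lay within that range. With FPKM scaled to equal totals per library (TPM), a scaling added after the data were seen, mos kept its order over the testes, as did ccnb2, ccne1 and cdc20, and the summed oocyte markers. Ccnb1 was then highest in testis 1, at 3.43%, 2.50% and 0.787% of the ovary mean. Of the 10 oocyte markers, 10 were lowest in testis 1 by FPKM and 6 by TPM, by which 3 were highest there. By TPM, zp2, zp3, zp4, nobox and foxn5 had the order of mos over the testes, and the other markers did not. The part that oocytes or dividing cells take in the testis levels was not tested.

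**Figure D2:**
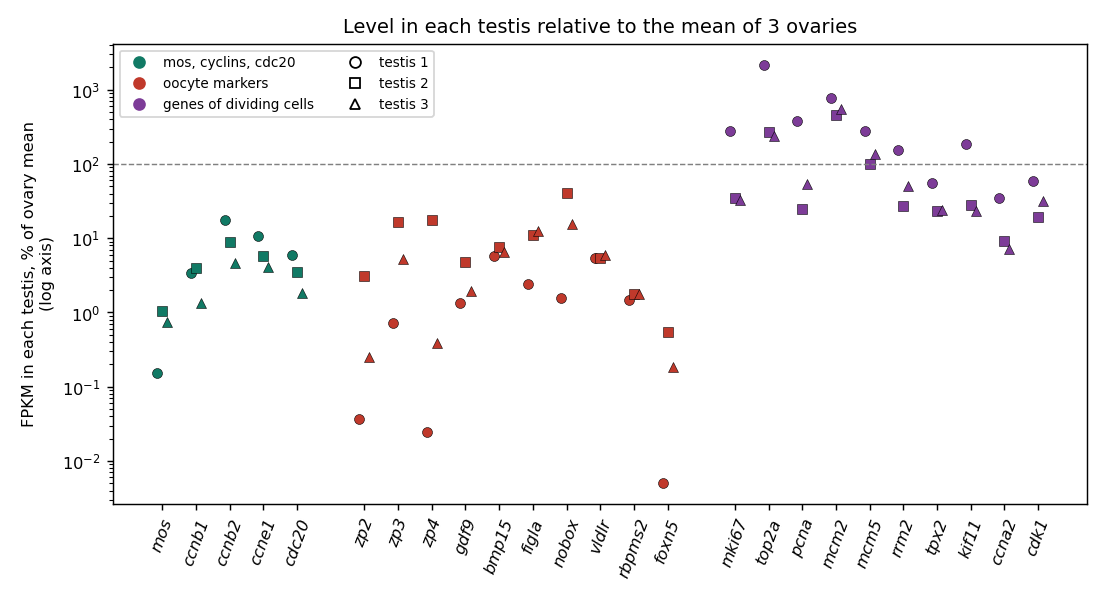
FPKM in each testis as a percentage of the mean of 3 ovaries (log axis) for the 5 genes (green), 10 oocyte markers (red) and 10 genes of dividing cells (purple), with one symbol shape per testis and a dashed line at equal levels. Mos is lowest in testis 1, like all 10 oocyte markers on the FPKM scale (6 of 10 with FPKM scaled to equal totals), whereas ccnb2, ccne1 and cdc20 are highest there, at 17.9%, 10.6% and 5.90%.

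The deposited values divide each gene's level among its full-length transcripts. Most transcript counts of the 5 genes were not whole, while their sums per gene were. How the counts were divided is not given. The shares and leading transcripts below rest on that division, and its accuracy was not tested. So do the FPKM sums of genes with more than 1 transcript, since each transcript is scaled to its own length. Of the 21 transcripts, 17 were built from ovary long reads and 4 from testis long reads, against 22549 and 12462 in the whole table. The best protein hit was the Japanese eel's own cyclin for all transcripts of ccnb1 and ccnb2, a zebrafish protein for ccne1, a rat protein for cdc20 and a chicken protein for mos. Mos had a single transcript of 2226 bases, which held its whole level in both tissues. In the fit of all 30738 transcripts tested, 4.4% were called higher in ovary, and 9 of the 20 tested transcripts of the 5 genes were called so. None was called higher in testis, where the background was 6.26%, and 11 were not called by edgeR. An unadjusted p under 0.05 was found for 14 of the 20, beside 31.1% of all transcripts tested. Leaving out testis 1 gave 3 calls, 2 of them among the 9, and leaving out any other single library gave 0. Then 13 or 14 of the 20 still had an unadjusted p under 0.05, and no transcript of the whole table was called when a library other than testis 1 was left out. Without testis 1, 1439 of all transcripts were called in either direction, against 3276 with all libraries. Among transcripts, 17.3% of those tested had all ovaries above all testes, and 13 of the 21 did.

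One transcript dominated ccnb1 in every library. It was 1365 bases long, and its name records 19 full-length reads from testis, the most of the 21 transcripts. Its level was 1996, 1913 and 3699 FPKM in the ovaries and 91.4, 89.0 and 26.2 FPKM in the testes. It took 85.1% to 87.1% of the ccnb1 level in the ovaries and 91.1%, 76.7% and 66.8% in testes 1, 2 and 3. Although built from testis reads, it was called higher in ovary, at 2536 ± 1008 against 68.9 ± 36.9 FPKM (SD, n = 3 each, log2 fold change -5.52, edgeR adjusted p = 0.0319). The other 4 transcripts, of 1806 to 2824 bases, changed places from ovary to ovary, and the 1806-base one was listed with no protein domain. The 2822-base transcript, for example, stood at 60.3, 241 and 47.8 FPKM in the ovaries and at 1.85, 5.77 and 4.37 FPKM in the testes, and was also called higher in ovary.

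The other cyclins and cdc20 had no such constant leader. For ccnb2 the 1761-base transcript led in ovaries 1 and 2, with 43.0% and 35.9% of the gene's level. In ovary 3 the 1678-base transcript led with 82.5%, at 977 FPKM against 30.1 and 65.4 FPKM in the other ovaries. The testis-built 1439-base transcript was listed at 0 FPKM in ovary 3 and led in testes 1 and 2, with 66.8% and 52.3%. Of the 6 ccnb2 transcripts tested, only the 1761-base one was called higher in ovary, at 223 ± 45.3 against 14.2 ± 9.61 FPKM (SD, n = 3 each, log2 fold change -4.23, edgeR adjusted p = 0.0340). This transcript was listed with no protein domain, while all other ccnb2 transcripts were listed with the cyclin C-terminal domain. The untested 1779-base transcript was marked low quality and reached at most 0.43 FPKM. When ccnb2 was represented by its leading transcript in place of the sum, its log2 fold change was -5.44 and the call was lost (edgeR adjusted p = 0.118).

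Ccne1 was led by a different transcript in each ovary. These were the 3066-base, 1679-base and 2208-base transcripts in ovaries 1, 2 and 3, with 55.3%, 65.6% and 62.5% of the level. The testis-built 2290-base transcript led in testis 1 with 55.2%. All 4 ccne1 transcripts had each ovary above each testis, and 3 of them were called. Cdc20 likewise had a different leader in each ovary, of 2905, 2370 and 2414 bases, and its testis-built 2135-base transcript led in testis 1 with 68.9%. The 2414-base cdc20 transcript stood at 10.4, 0 and 591 FPKM in ovaries 1, 2 and 3, while the gene as a whole varied least of the 5 in FPKM.

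The typical transcript varied more between ovaries than the sum of its gene. The median coefficient of variation over transcripts was 110.5% for ccnb1, 119% for ccnb2, 85.4% for ccne1 and 75.2% for cdc20. For the gene sums it was 41.1%, 40.2%, 26.9% and 17.9%. The least variable transcripts of ccnb1, of 1365 bases, and of ccnb2, of 1761 bases, varied less than their sums, at 39.7% and 20.3%. In the deposited counts, 30 of the 126 values of the 21 transcripts were whole numbers to within 0.05, but the sums per gene were whole in 30 of 30 cases. Over all 6377 symbols with more than a single transcript, 87.8% of the sums and 16.5% of the transcript values were whole. Mos, with 1 transcript, had whole counts in all 6 libraries.

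**Figure D3:**
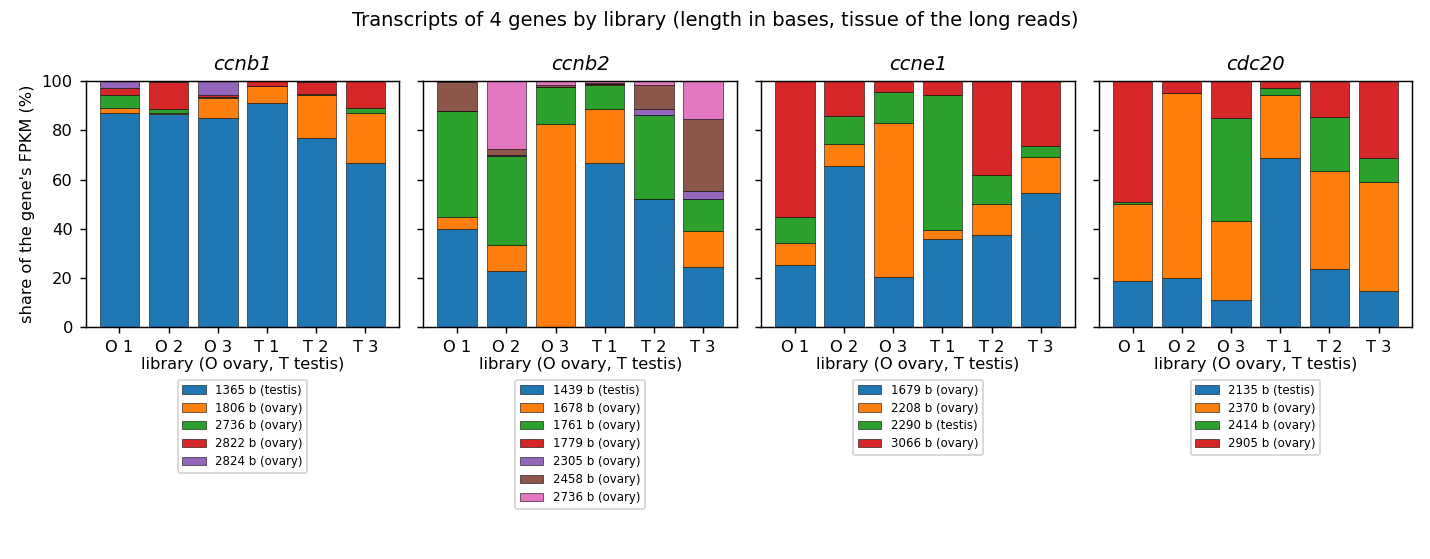
Share of each gene's FPKM (%) held by each full-length transcript of ccnb1, ccnb2, ccne1 and cdc20 in 3 ovaries (O) and 3 testes (T), with length in bases and the tissue of the long reads in the key. The 1365-base ccnb1 transcript holds 66.8% to 91.1% in all 6 libraries, whereas the leading transcript of the other genes changes between libraries of the same tissue.

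Among the 20 cyclin genes compared, ccnb1 ranked below only ccna1 in ovary. The 20 were the 3 studied here and 17 others found from a fixed list of 20, all compared per length. Cyclins outside that list were not ranked. Ccna1, the germ-line A-type cyclin, stood at 4071 ± 464 FPKM in ovary and 88.1 ± 86.9 FPKM in testis (SD, n = 3 each, log2 fold change -5.75, edgeR adjusted p = 0.00718). The log2 fold change was -7.03 without testis 2, and with the leading transcript the call was lost (edgeR adjusted p = 0.0594). Ccna1 was above ccnb1 in each ovary, although its range of 3542 to 4410 FPKM overlapped that of ccnb1. After ccnb1 came ccnb2, then ccna2 with 390 to 505 FPKM, then ccne1. Each of these was separated from the one before it, while ccne1 overlapped ccng1, at 83.9 to 165 FPKM. Ccnb1 held 27.9%, 29.6% and 39.4% of the summed cyclin FPKM in ovaries 1, 2 and 3.

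In testis the order was different. Ccni led at 218 to 431 FPKM, and ccnb1 came 5th and ccnb2 6th of the 20. Ccnb1 held 6.85%, 9.14% and 5.30% of the summed cyclin FPKM in testes 1, 2 and 3. Ccne1 was 5th in ovary and 18th in testis. Its paralog ccne2 was not called (edgeR adjusted p = 0.882), at 38.8, 30.0 and 42.3 FPKM in the ovaries and 126, 5.17 and 14.0 FPKM in the testes. Testis 1 was the highest library for ccne2 and testis 2 the lowest, so its tissues overlapped. Its 2 ovary-built transcripts summed to 34.9, 24.9 and 39.5 FPKM in the ovaries and 0.24, 1.55 and 7.96 FPKM in the testes. Its 5 testis-built transcripts summed to 3.98, 5.06 and 2.79 FPKM in the ovaries and 125, 3.62 and 5.99 FPKM in the testes. The B-type cyclin ccnb3 was not called either (edgeR adjusted p = 0.659), at 25.1 to 38.7 FPKM in the ovaries and 20.3 to 104 FPKM in the testes.

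**Figure D4:**
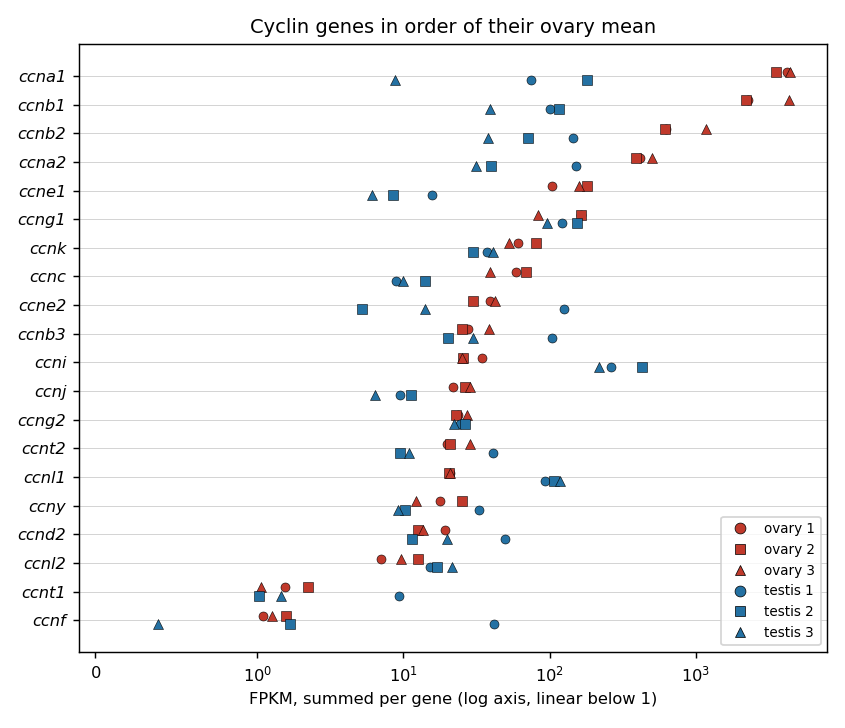
FPKM (log axis, linear below 1) of 20 cyclin genes in 3 ovaries (red) and 3 testes (blue), in the order of their ovary means. Ccna1, ccnb1, ccnb2, ccna2 and ccne1 head the ovary order with all ovaries above all testes, and ccni and ccnl1 show the opposite arrangement.

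Of the 17 other cyclins tested, 5 were higher in ovary (background 21.1% of genes), 2 were higher in testis and 10 passed in neither direction. The middle log2 fold change of the 17 was 0.20. Besides ccna1 and ccna2, the ovary-high cyclins were ccnc (59.2, 69.5 and 39.2 FPKM in the ovaries against 8.85, 14.1 and 9.94 FPKM in the testes), ccnj and ccnk. The cyclins higher in testis, for which the background was 24.8% of genes, were ccni (28.4 ± 5.36 against 305 ± 112 FPKM) and ccnl1 (20.7 ± 0.225 against 106 ± 12.2 FPKM, SD, n = 3 each).

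The kinases that Mos acts through had smaller fold changes than mos itself. Of the 7 genes of the MAP kinase cascade in the table, 2 were higher in ovary, 1 was higher in testis and 4 were not called. The background over all genes tested was 21.1% higher in ovary and 24.8% higher in testis. Rps6ka3, encoding a ribosomal S6 kinase that MAP kinase activates, stood at 16.1, 17.3 and 19.8 FPKM in the ovaries and 10.1, 4.02 and 7.04 FPKM in the testes (edgeR adjusted p = 0.0103). Rps6ka6, of the same kinase family, was the reverse, at 5.76 ± 0.634 FPKM in ovary and 24.2 ± 3.44 FPKM in testis (SD, n = 3 each, edgeR adjusted p = 0.00385). The MAP kinase kinases map2k1 and map2k2 were not called, with log2 fold changes of -0.15 and -0.69. Without testis 1, 4 genes of the cascade were called higher in ovary, and without ovary 2 or testis 2 only 1 was.

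CDK1, the kinase that cyclin B activates, was also higher in ovary, with a smaller fold change than ccnb1 and ccnb2. Cdk1 stood at 513, 457 and 398 FPKM in the ovaries and 272, 87.4 and 145 FPKM in the testes, a 3.68-fold difference (edgeR adjusted p = 0.0122). Cdk2, the partner of cyclin E, was higher in testis, at 40.7 ± 0.223 FPKM in ovary against 165 ± 57.4 FPKM (SD, n = 3 each, edgeR adjusted p = 0.00711). With the leading transcript of cdk2 in place of the sum, the log2 fold change of 1.43 turned to -0.26 and the call was lost (edgeR adjusted p = 0.600). The inhibitory kinases of CDK1 parted in the same way. Wee2, the form known from mammalian oocytes, was at 109 ± 15.9 FPKM in ovary and 23.0 ± 5.89 FPKM in testis, and wee1, known from body cells, at 6.35 ± 2.45 and 54.5 ± 14.1 FPKM (SD, n = 3 each, edgeR adjusted p = 0.00210 and 0.00207).

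Of 22 listed genes of CDK1, CDK2 and their regulators, 17 were in the table. Of these 17, 4 were higher in ovary, 4 were higher in testis and 9 passed in neither direction. The background shares were 21.1% and 24.8% of genes. The middle log2 fold change of the 17 was -0.35. The ovary-high genes also included bora, an activator of the kinase PLK1 (39.7 ± 3.54 against 9.80 ± 3.91 FPKM), and cdk7, the CDK-activating kinase (SD, n = 3 each). The cdk7 log2 fold change of -2.11 was -1.48 without ovary 3. Those higher in testis included the CDK inhibitor cdkn1a, at 0.410 ± 0.0755 against 5.83 ± 2.17 FPKM, and the inhibitory kinase pkmyt1 (SD, n = 3 each). The pkmyt1 call was lost when ovary 1, ovary 2 or testis 2 was left out (edgeR adjusted p = 0.0911, 0.0771 and 0.0806). Without testis 1, 9 genes of this list were called higher in ovary, beside 3026 of all genes (2608 with all libraries).

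CDC20 activates the anaphase-promoting complex. Among the subunits and regulators of the complex, 8 of 17 genes were higher in ovary, 1 was higher in testis and 8 were not called. The background was 21.1% of genes higher in ovary and 24.8% higher in testis. Leaving out ovary 1 or testis 2 left 5 higher in ovary. Fbxo43, also called Emi2, encodes the inhibitor that keeps the complex silent during egg arrest in frogs and mice. It stood at 82.1, 85.8 and 61.8 FPKM in the ovaries and 32.7, 13.5 and 14.8 FPKM in the testes (4.79-fold, edgeR adjusted p = 0.00417). The ubiquitin-conjugating enzyme ube2c was at 1001 ± 337 against 258 ± 99.6 FPKM (SD, n = 3 each, edgeR adjusted p = 0.00690). The subunit genes anapc7 and anapc15 were higher in ovary, 4.49-fold and 2.76-fold, whereas the largest subunit gene anapc1 was 5.13-fold higher in testis (edgeR adjusted p = 0.00157, 0.00344 and 0.00203). Fzr1, encoding the alternative activator CDH1, was not called, at 66.6 against 109 FPKM (edgeR adjusted p = 0.246).

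The spindle checkpoint holds CDC20 inactive, and securin is, with cyclin B, a main protein that CDC20 brings to the complex. Of 18 genes on this list, 6 were higher in ovary (background 21.1%), 3 were higher in testis (background 24.8%) and 9 were not called. Pttg1, which encodes securin, stood at 1196, 1293 and 1787 FPKM in the ovaries and 212, 140 and 190 FPKM in the testes (9.46-fold, edgeR adjusted p = 0.00129). The gene of the protease that securin inhibits, separase (espl1), went the other way, at 5.44 ± 0.947 FPKM in ovary and 41.3 ± 24.6 FPKM in testis (SD, n = 3 each, edgeR adjusted p = 0.00408). Mad2l1, whose product binds CDC20, was 2.44-fold higher in ovary, and mad2l1bp, whose product takes MAD2 off again, was 7.20-fold higher (edgeR adjusted p = 0.00903 and 0.00593). Without testis 1 the log2 fold change of mad2l1bp was -3.55 in place of -2.85, and 10 genes of the list were higher in ovary. Over all genes, 3026 in place of 2608 were then called higher in ovary. Nuf2, of the kinetochore, was also higher in ovary, while knl1 and aurkb were higher in testis, with log2 fold changes of 2.86 and 2.33. Without testis 1 these were 1.69 and 1.61, and the knl1 call was lost without ovary 2 or ovary 3 (edgeR adjusted p = 0.0555 and 0.0561).

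Proteins that store, repress or polyadenylate the mRNAs of mos and cyclin B in frog oocytes formed the next list. Of 25 listed genes, 14 were in the table. Of these 14, 4 were higher in ovary (background 21.1%), 1 was higher in testis (background 24.8%) and 9 were not called. Zar1, whose product binds maternal mRNAs, was at 2738, 2462 and 3211 FPKM in the ovaries and 11.2, 147 and 37.7 FPKM in the testes (edgeR adjusted p = 0.00593). Its log2 fold change of -5.63 was -7.13 without testis 2. The mRNA-storage genes lsm14b and patl2 were 21.7-fold and 5.33-fold higher in ovary, and parn, a deadenylase gene, 2.38-fold (edgeR adjusted p = 0.00150, 0.00343 and 0.00928). Dazl, a germ cell translation regulator, was 5.35-fold higher in testis (edgeR adjusted p = 0.00227). Without testis 1, 7 genes of the list were higher in ovary, beside 3026 of all genes (2608 with all libraries). The log2 fold change of lsm14b was then -5.10 in place of -4.44.

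The list around cyclin E held 10 tested genes, which were e2f1 to e2f5, rb1, rbl1, cdc6, cdt1 and gmnn. Of these, 3 were higher in ovary (background 21.1%), 2 were higher in testis (background 24.8%) and 5 were not called. The 3 ovary-high genes license DNA replication or restrain licensing. They were cdc6 (130 ± 11.1 against 38.6 ± 23.7 FPKM), cdt1 (211 ± 78.8 against 27.7 ± 21.5 FPKM) and the licensing inhibitor gmnn (282 ± 102 against 97.5 ± 25.1 FPKM, SD, n = 3 each). The cdt1 log2 fold change of -3.14 was -4.06 without testis 1. Those higher in testis were e2f1 and rbl1, which encode a transcription factor and a relative of the RB1 protein, with log2 fold changes of 1.55 and 1.15. Their calls were lost when libraries were left out, e2f1 in 5 of 6 cases and rbl1 in 4 of 6, and 0 genes of the list were called higher in testis without ovary 1, ovary 3 or testis 1.

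The 7 lists named 125 genes, of which 100 were in the table. Over the lists together, 32 of 100 genes tested were higher in ovary, 14 were higher in testis and 54 were not called, beside 21.1% and 24.8% of all genes. Their median log2 fold change was -0.45, and no called ovary-high gene of the lists other than ccna1 and zar1 reached the -5.10 of cdc20. Without testis 1, 49 were called higher in ovary, and with the leading transcript of each gene 20 were. Of the genes named above from the lists, rps6ka3, rps6ka6, cdk1, wee2, pkmyt1, bora, anapc15, mad2l1, nuf2, parn, patl2, rbl1, cdt1 and gmnn also lost their calls with the leading transcript. In the oocyte meiosis map of the deposited pathway annotation, chosen after the files were seen, 22 of 79 genes tested were higher in ovary and 14 in testis, beside 22.5% and 22.8% of all genes with a symbol. In the map of progesterone-mediated oocyte maturation, chosen in the same way, 23 of 66 were higher in ovary and 11 in testis. In the cell cycle map, also so chosen, the counts were 26 and 23 of 107.

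**Figure D5:**
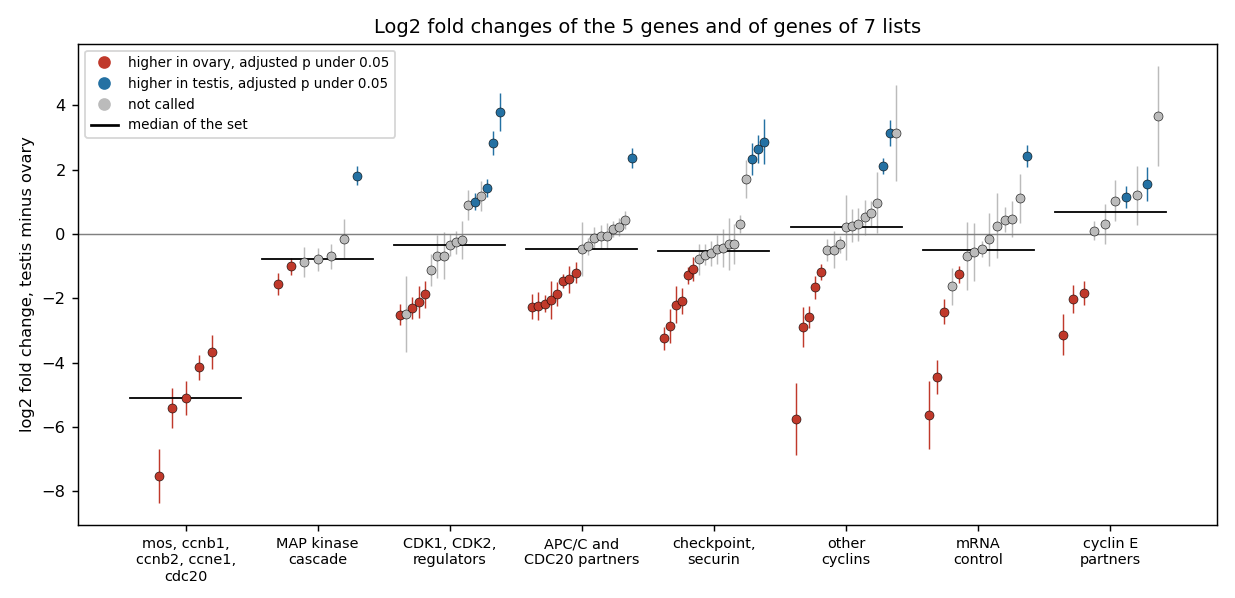
Log2 fold change (testis minus ovary) with its SE for the 5 genes and for the genes of 7 lists, each point a gene and the black line the median of the set. Red and blue points have an edgeR adjusted p under 0.05, and the 5 genes lie between -7.52 and -3.67.

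The genes with the most similar pattern were found for each of the 5 by the mean absolute difference of centred log2(FPKM + 1) over the 6 libraries, among 6827 genes whose mean reached 10 FPKM in at least one tissue. For mos these were larp6, sox3 and rhcg1, at differences of 0.20, 0.24 and 0.25. Sox3, a transcription factor gene, stood at 221, 193 and 214 FPKM in the ovaries and was listed at 0, 2.41 and 1.36 FPKM in the testes. Genes were picked by these same values, so an order of libraries shared with a member follows from the choice. For ccnb1 the nearest genes were kcnh2, ednrb and rergl, and for cdc20 depdc7, rergl and ccnb1. The difference between ccnb1 and cdc20 was 0.40.

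Ccnb2 had as its nearest genes nek2 and kif20a, both of which act in cell division, and retsat, at 0.21 to 0.28. Nek2, picked by its likeness to ccnb2, stood at 104, 96.6 and 208 FPKM in the ovaries and 29.5, 6.76 and 5.55 FPKM in the testes. Ccne1 was nearest to igf2bp3-b, atg4d and them4, the first at 0.18. Ccne1 was 11th in the order of ccnb2, whereas mos was 2777th, at a difference of 1.59.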

How the data were processed

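RNA-seq libraries of 3 ovaries and 3 testes, from separate fish per the series' design text, were analysed from the deposited table of full-length transcripts. The authors' estimated counts were deposited per transcript and library, are mostly not whole, and carry no further normalization. The deposited FPKM values are scaled to transcript length and library size, per the file headers. The submitters' processing notes list featureCounts 1.5.0-p3, HISAT2 2.0.5, fastp and CASAVA 1.8 without roles. The sources used here do not give how counts were divided among transcripts. Transcript names record tissue, full-length reads and length.

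Symbols came from the deposited SwissProt hit, vertebrate hits only (306 rows with other symbols stayed single), so close paralogs rest on that hit. Counts and FPKM were summed per symbol, and the counts were rounded. All rows without a vertebrate symbol stayed single, so the 13194 units called genes here hold 9262 symbols and otherwise single transcripts. Testis was compared with ovary by edgeR 4.0.16 (R 4.3.3, TMM scaling, filterByExpr, robust quasi-likelihood) with Benjamini-Hochberg adjustment, per gene and, separately, per transcript. A standard error is the size of the log2 fold change over the square root of F. The procedure was also run on counts simulated from the spread that edgeR itself fitted. Those counts hold no error from dividing counts among transcripts, so that run does not bear on such error. DESeq2 1.42.0 and limma 3.58.1 (pseudocounts 1 and 0.1) served as alternatives. P-values for the share of ccnb1 came from an exact permutation test. Total counts of 11913969 to 18508307 per library set the precision, and each value rests on 3 fish.

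Members and lists were chosen with earlier results of these data known. Named genes were the 5 members, up to 4 called genes per direction and list with the smallest adjusted p, and the 3 most similar genes per member. The genes ccna2, ccnb3, ccne2, ccng1, fzr1, map2k1 and map2k2 were added after their values were seen. One gene chosen this way is not reported here.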

Additional observations from a re-analysis of the deposited data

How the results depend on the processing

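Mos, ccnb1, ccne1 and cdc20 kept direction and call under all 15 alternatives (other scalings, filters, tools, symbols, leading transcript, replicate block, each library left out), and ccnb2 under 14. Mos has 1 transcript, so the leading transcript setting could not change its own counts. Mos ranged from -8.11 to -6.55 and cdc20 from -5.68 to -4.85 in log2 fold change. With the leading transcript, ccnb2 was -5.44 and lost its call (adjusted p 0.118), 20 in place of 32 list genes were higher in ovary, cdk2 turned to -0.26, and genes higher in ovary numbered 2 of CDK regulators, 2 of the checkpoint, 2 of mRNA control and 1 each of the MAP kinase cascade and cyclin E lists. Calls of member transcripts higher in ovary, 9 by edgeR, were 14 by DESeq2, 0 with the replicate block and 0 to 3 with a library left out (unadjusted p under 0.05 in 14, 16, 12 and 13 to 14). Over all transcripts, calls in either direction moved likewise. They numbered 3276 by edgeR, 10477 by DESeq2, 0 with the replicate block and 0 to 1439 with a library left out. The cause was not tested. With a library left out, genes higher in testis ranged from 2001 to 3155 (3073 with all), and genes higher in ovary from 1894 to 3026 (2608 with all). List genes higher in ovary ranged from 27 to 49. Limma on log2(TPM + 1) gave 9 list genes higher in testis in place of 14, 1 of them in the checkpoint list and 0 in the cyclin E list. The middle log2 fold change over all genes was 0.11, but -0.14 on that scale, 0.30 with upper quartile scaling, -0.077 without testis 1 and up to 0.122 with another library left out, shifts small beside those of the 5 genes. The share of ccnb1 differed by -32.4 to -21.9 percentage points with a library left out.

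Ovaries and testes came from separate fish by design, so same-numbered libraries do not pair a fish. The deviations of same-numbered libraries from their tissue means correlated at -0.03, 0.01 and -0.03. The replicate block gave 2062 genes higher in ovary and 2272 higher in testis. The 9 to 58 counts of mos per testis limit how finely its fold change can be read.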
